A study of Homo sapiens with 4 samples.

Results

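RNA was sequenced from hepatocellular carcinoma (HCC) cells given migrasomes (Migs), and the 8 genes described here encode subunits of the cytoplasmic intermediate filaments. They were chosen by name, with earlier results of these data known. The genes are the keratins KRT7, KRT8, KRT18, KRT80, KRT81 and KRT86, with vimentin (VIM) and nestin (NES). They are 8 of the 58735 genes in the tables, and all 8 were among the 19895 genes that had at least 10 reads in at least 1 library.

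Keratin filaments are built from pairs of a type I and a type II keratin, and the pair KRT8 and KRT18 is the one that hepatocytes make. KRT7 and KRT19 are keratins of bile duct epithelium, and KRT81 and KRT86 are type II hair keratins, whose usual place is the hair shaft. Vimentin is the filament of mesenchymal cells and of many cultured carcinoma lines, and nestin, first known from neural stem cells, assembles together with vimentin or related proteins.

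The recipient cells in all 4 libraries were MHCC-97H cells labelled WT, an established human HCC line with a high capacity to metastasize. One culture received PBS for 24 h. The other 3 received 2 μg of Migs for 24 h. Migs are vesicles that form on the retraction fibers of migrating cells, and here they came from MHCC-97H cells themselves. Donor cells were kept in normoxia for the normo-Migs, in hypoxia for the hypo-Migs, and in hypoxia after knockout of CD147 for the CD147KO-Migs, so that the knockout was in the donors and not in the cells sequenced. The normoxia of the normo-Migs donors is taken from the sample labels and the supplementary methods, whereas the main methods of the study name hypoxia for that group, and hypo-Migs against normo-Migs is read here by the labels. All 4 libraries carry 1 batch label. Values of the Mig libraries are given in the order normo-Migs, hypo-Migs, CD147KO-Migs throughout.

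Each condition had 1 library, so no difference below has a replicate check, and every fold compares libraries, not conditions. Values are reads counted on a gene, reads per 1000000 reads on genes (CPM), or FPKM, which also divides by gene length. Differences are log2 fold changes after TMM scaling, with exact 95% intervals in brackets that cover counting error only. A gene was counted as higher or lower where it differed by at least 2-fold.

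The libraries held 33882496 to 40285223 reads on genes. The PBS library stood apart from the others: 251 genes had at most 3 reads in it and at least 100 in each Mig library, and 13 genes had the reverse pattern, whereas the same counts for each Mig library against the other 3 were 0 or 1. Mitochondrial genes took 2.69% of its reads and 5.00% to 5.16% in the Mig libraries. What sets this library apart cannot be told apart from the treatment, so each gene is also described over the 3 Mig libraries alone. All 3 comparisons with PBS use that same library, so their similarity is not a repeat observation. In these cells, labelled as liver carcinoma cells, the defining hepatocyte genes ALB (albumin), APOB and TTR had 0 reads in all 4 libraries. They are part of a list of 17 hepatocyte markers, given whole below. On that list FGA had 0 reads with PBS and 395, 493 and 462 with Migs. FGB had 0 reads with PBS and 561, 827 and 832 with Migs. A gene without a read may still have an expected count of up to 3 at this depth, or 0.0745 to 0.0885 CPM.

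The sequences of KRT81 and KRT86 are shown first because they decide how far these genes can be measured apart. Both lie on chromosome 12 (GRCh38), KRT81 on the minus strand at chr12:52285913-52291534 and KRT86 on the plus strand at chr12:52249300-52309163, so that the annotated span of KRT86 encloses KRT81. Their coding sequences (1515 bases for KRT81 and 1458 bases for KRT86, main transcripts of GENCODE 29) could be aligned over 1454 bases, of which 94.2% were identical, and the longest run without a difference was 605 bases. Among stretches of 90 bases within 1 exon, the most different one had 9 differences. A stretch of exon 2, shown to make the shared sequence visible, had 0 differences, and the same letters, read 5′ to 3′ on the strand of each gene, serve for both (chr12:52290078-52290167 for KRT81 and chr12:52303219-52303308 for KRT86).
KRT81 and KRT86: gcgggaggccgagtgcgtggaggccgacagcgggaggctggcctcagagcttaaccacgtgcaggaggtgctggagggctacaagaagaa
Of all stretches of 100 bases in the KRT81 transcript, 29.4% also occurred in KRT86, and of those in the KRT86 transcript, 27.0% also occurred in KRT81. A read from such a stretch has no single origin, so the smaller count of the pair is reported as uncertain in each library: KRT81 with PBS, and with it the fold of KRT81 over PBS, and KRT86 with Migs.

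KRT8 and KRT18, the hepatocyte pair, both stood above the PBS library in every Mig library, by less than 2-fold. KRT8, the type II partner, had 105571 reads with PBS and 129218, 167573 and 157507 with Migs, or 3116 CPM against 3739, 4160 and 4495 CPM. Its level was lowest in the PBS library and highest with CD147KO-Migs. Against PBS, KRT8 was higher by 0.31 [0.30, 0.32], 0.45 [0.44, 0.46] and 0.56 [0.54, 0.57] on the log2 scale. In bulk RNA, fewer cells that express a gene and less of its RNA per cell cannot be told apart, which holds for every value here.

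KRT18, the type I partner, had 36742 reads with PBS and 59588, 79098 and 72651 with Migs, or 1084 CPM against 1724, 1963 and 2073 CPM. The order of the libraries was the one seen for KRT8. KRT18 was higher than with PBS by 0.72 [0.70, 0.73], 0.89 [0.87, 0.91] and 0.96 [0.94, 0.98] on the log2 scale. The last of these is 1.95-fold, just under the limit of 2-fold. The ratio of KRT8 reads to KRT18 reads was 2.87 in the PBS library and between 2.12 and 2.17 in the Mig libraries. Per length, as a ratio of FPKM, it was 1.34 with PBS and 0.991 to 1.01 with Migs. These values depend on the length used, all exonic bases (6881 for KRT8 and 3218 for KRT18). By main transcript (1755 and 1420 bases), KRT8 stood at 1775 CPM per kilobase with PBS and 2130, 2370 and 2561 with Migs. KRT18 stood at 764 and 1214, 1383 and 1460, so by that length KRT8 was the higher partner in every library.

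KRT7, a type II keratin of ducts and glands, was lower in every Mig library. It had 46770 reads with PBS and 17940, 19191 and 16648 with Migs, or 1380 CPM against 519, 476 and 475 CPM. The Mig libraries lay together, within 1.11-fold of each other after scaling, and the PBS library lay above all of them. The PBS value was higher by 2.57-fold [2.53, 2.62], 2.83-fold [2.79, 2.88] and 2.85-fold [2.80, 2.90]. KRT7 was the only one of the 8 genes that was lower by at least 2-fold.

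KRT80, another type II keratin, had 8842 reads with PBS and 5687, 6795 and 5252 with Migs, or 261 CPM against 165, 169 and 150 CPM. Its log2 fold changes against PBS were -0.62 [-0.67, -0.57], -0.60 [-0.64, -0.55] and -0.77 [-0.82, -0.72], short of 2-fold in each. The PBS library was again above all Mig libraries.

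KRT81 showed the widest gap of the members. The PBS library held 44 of its reads, against 41256, 45973 and 38993 with Migs, or 1.30 CPM against 1194, 1141 and 1113 CPM. The Mig libraries lay within 1.09-fold of each other, far above the PBS library. The fold over PBS was 908 [707, 1307], 862 [669, 1237] and 836 [650, 1202]. Among the 19895 genes these were the 9th, 11th and 10th highest log2 fold changes. The 44 reads that these folds rest on are the smaller count of the pair in the PBS library, and how many of them came from KRT86 was not tested. With the reads of both genes summed, the log2 fold change over PBS was 8.04, 7.96 and 7.92, against 9.83, 9.75 and 9.71 for KRT81 alone. The folds of KRT81 are shrunk by a prior count of 2, whereas their intervals are not. On the scale log2(FPKM + 1), its log2 fold changes over PBS were 8.55, 8.47 and 8.43.

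KRT86, the near copy of KRT81, had 116 reads with PBS and 826, 919 and 920 with Migs, or 3.42 CPM against 23.9, 22.8 and 26.3 CPM. It was 7.11-fold [5.93, 8.84], 6.72-fold [5.61, 8.34] and 7.70-fold [6.44, 9.56] higher than with PBS. KRT81 had 0.379 reads per KRT86 read in the PBS library and 49.9, 50.0 and 42.4 in the Mig libraries. How many of the KRT86 reads in the Mig libraries came from KRT81 was not tested.

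VIM, the mesenchymal filament, hardly differed among the libraries. It had 9767 reads with PBS and 9755, 11298 and 9064 with Migs, or 288 CPM against 282, 280 and 259 CPM. The PBS value lay inside the range of the Mig libraries after scaling. The log2 fold change from PBS was 0.02 [-0.02, 0.06], -0.01 [-0.05, 0.03] and -0.13 [-0.17, -0.09]. With scaling by total reads the value for normo-Migs was -0.03, so its sign is not settled.

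NES, which assembles with vimentin, differed where VIM did not. It had 383 reads with PBS and 3950, 4375 and 3695 with Migs, or 11.3 CPM against 114, 109 and 105 CPM. The Mig libraries lay within 1.10-fold of each other and the PBS library far below them. NES was higher than with PBS by 10.4-fold [9.40, 11.6], 9.78-fold [8.85, 10.9] and 9.46-fold [8.56, 10.6]. The main transcript of NES shared 0 of its 5459 stretches of 100 bases with any other annotated gene.

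**Figure D1:**
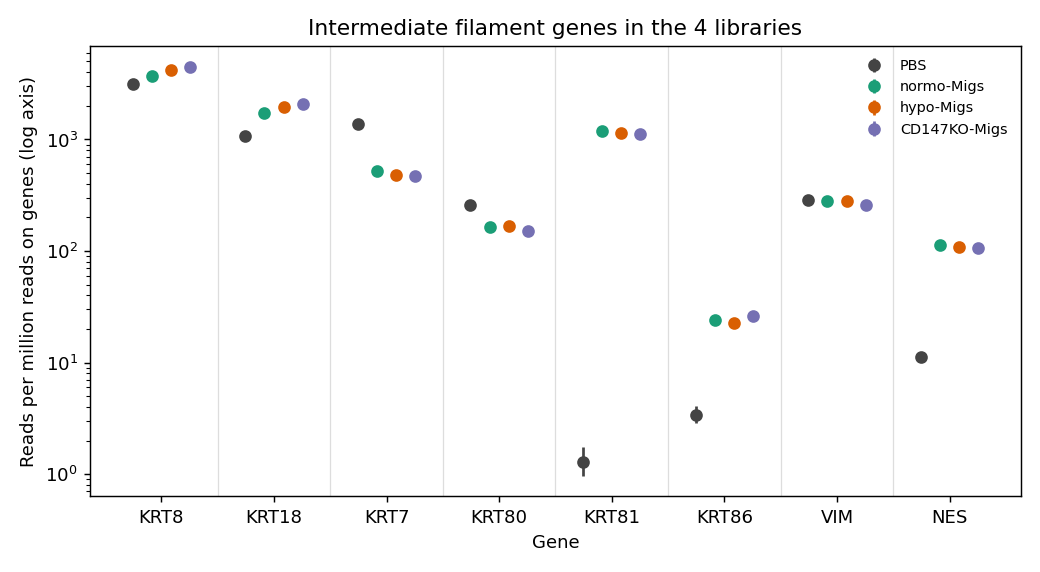
Level of each gene in each library, as CPM on a log axis, with 95% Wilson intervals that are mostly smaller than the points. KRT81 stood at 1.30 CPM with PBS and between 1113 and 1194 CPM with Migs, NES and KRT86 were also lowest with PBS, KRT7 and KRT80 were highest there, and the 4 VIM points lie close together.

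Of the 8 genes, 3 (KRT81, KRT86 and NES) were at least 2-fold higher and 1 (KRT7) at least 2-fold lower than with PBS in each of the 3 Mig libraries. Over all genes tested, 18.1%, 18.9% and 18.1% were at least 2-fold higher, and 11.8%, 11.7% and 12.0% at least 2-fold lower. With 8 genes, 3 and 1 are counts too small to be set apart from these shares. The KRT86 count with Migs is uncertain, as stated above, so KRT81 and KRT86 may not be separate observations. With both summed and counted as 1 gene, 3 genes differed by at least 2-fold from PBS in each comparison. The median log2 fold change of the 8 genes was 0.51, 0.67 and 0.76 in the 3 comparisons, against 0.03, 0.04 and 0.03 over all genes tested. Because the 8 genes were chosen with earlier results of these data known, these medians are a description and no evidence of a shared shift.

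**Figure D2:**
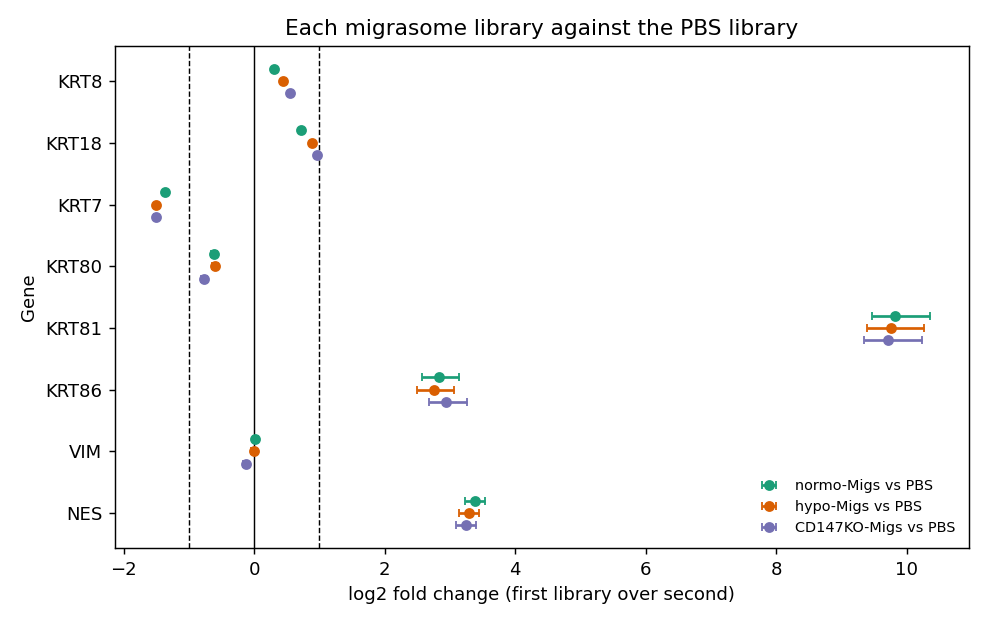
Log2 fold change of each gene in the Mig libraries over the PBS library, with exact 95% intervals of counting error and dashed lines at 2-fold. KRT81 lies between 9.71 and 9.83, NES between 3.24 and 3.38, KRT86 between 2.75 and 2.95, and KRT7 between -1.51 and -1.36, while KRT8, KRT18, KRT80 and VIM stay inside the dashed lines. The part of KRT81 reads in the KRT86 values was not tested.

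Among the questions of the study was what hypo-Migs, and the CD147 they carry, do to the recipient cells. Without the PBS library, the Mig libraries show only differences between kinds of Migs, not what all kinds have in common. None of the 8 genes differed by 2-fold between any 2 Mig libraries. Over all genes tested, hypo-Migs against normo-Migs gave 5.24% higher and 4.15% lower, hypo-Migs against CD147KO-Migs gave 4.79% higher and 4.34% lower, and CD147KO-Migs against normo-Migs gave 4.73% in each direction. Many of those genes had few reads: among the 6960 genes whose mean reached 1000 reads, the median size of the log2 fold change was 0.07 in each of these comparisons, and 9 in 10 genes were under 0.18, 0.17 and 0.19, respectively.

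Hypo-Migs against normo-Migs, the comparison of hypoxic with normoxic donors, gave 0.17 [0.16, 0.19] for KRT18 and 0.14 [0.13, 0.15] for KRT8. The other values ranged from -0.14 [-0.17, -0.11] for KRT7 to 0.02 [-0.03, 0.07] for KRT80. Against CD147KO-Migs, the hypo-Migs library was at 0.17 [0.12, 0.23] for KRT80 and 0.12 [0.08, 0.16] for VIM, and at -0.07 [-0.09, -0.06] for KRT18 and -0.11 [-0.12, -0.10] for KRT8. NES was at 0.05 [-0.02, 0.11] and KRT81 at 0.04 [0.02, 0.06] in that comparison.

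KRT8 and KRT18 differed most between CD147KO-Migs and normo-Migs, each by 0.25, with intervals of [0.24, 0.26] and [0.23, 0.26]. Each of these was larger in size than the difference of 96.0% of the 6960 well-read genes. Both genes were therefore at their lowest with normo-Migs among the Mig libraries and at their highest with CD147KO-Migs, with hypo-Migs between. For KRT86 the intervals were wide, from -0.22 to 0.05 for hypo-Migs against normo-Migs and from -0.33 to -0.06 against CD147KO-Migs. Intervals that leave out 0 show only that a difference exceeds counting error, and without replicates the spread between cultures is unknown.

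**Figure D3:**
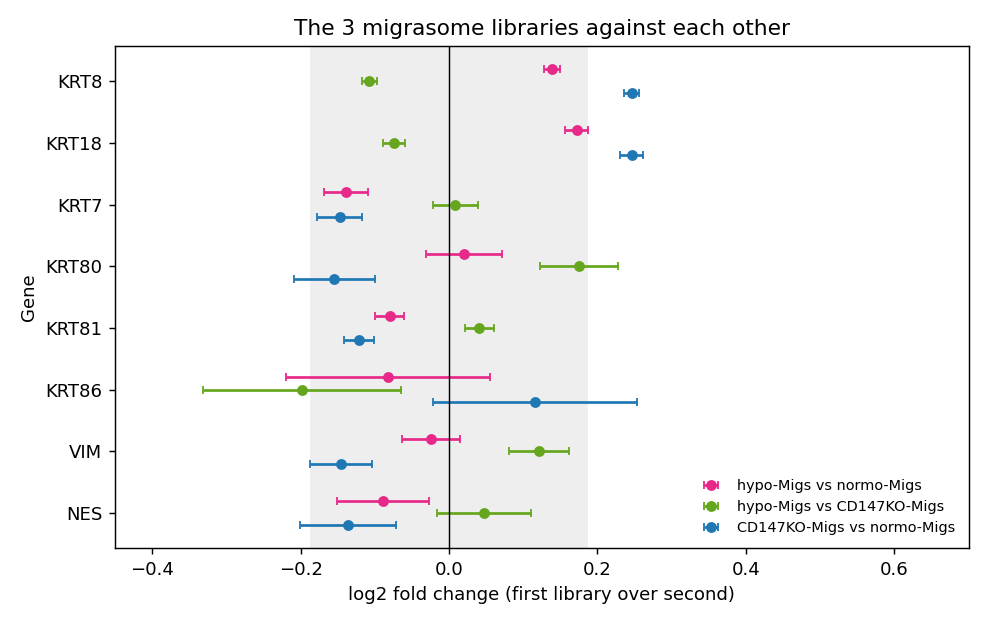
Log2 fold changes among the 3 Mig libraries, with exact 95% intervals of counting error. The grey band, 0.19 to each side, holds at least 9 in 10 of the 6960 genes whose mean reached 1000 reads in each comparison, and only KRT8 and KRT18, at 0.25 for CD147KO-Migs against normo-Migs, and KRT86, at -0.20 for hypo-Migs against CD147KO-Migs, have points outside it. The mean of KRT86 was below 1000 reads, so it is not among the 6960 genes and the band is no measure for it.

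Keratins as a family took a little more of each Mig library. Reads on the 55 protein-coding keratins made up 0.658% of all reads with PBS and 0.751%, 0.810% and 0.851% with Migs. The 6 keratins described here held 88.8% of those reads with PBS and 97.9% to 98.0% with Migs. KRT81 took 0.0197% [0.0147, 0.0265] of keratin reads with PBS and 15.9%, 14.1% and 13.1% with Migs. KRT7 took 21.0% with PBS and 6.91%, 5.88% and 5.58% with Migs. The share of KRT8 was 47.3% with PBS and 49.8% to 52.8% with Migs, and that of KRT18 was 16.5% and 22.9% to 24.4%. The keratin reads were thus shared out differently, with KRT81 taking the third place that KRT18 held with PBS.

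Summed per length, type II keratins stood at 836 FPKM with PBS and at 1345, 1354 and 1380 FPKM with Migs. Type I keratins stood at 602, 596, 669 and 703 FPKM. Type II over type I was therefore 1.39 with PBS and 2.26, 2.03 and 1.96 with Migs. These sums divide by all exonic bases, 6881 for KRT8 and 1929 for KRT81, whereas the main transcripts have 1755 and 1929. With main transcripts the ratio was not computed. Its size rests on the length used, and whether it is higher or lower with Migs may rest on it too. Hair keratins of type I, the usual partners of KRT81 and KRT86, were nearly unread: 38 reads in all with PBS and 16 to 18 with Migs, against 170 reads of type II hair keratins with PBS and 39923 to 46908 with Migs.

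**Figure D4:**
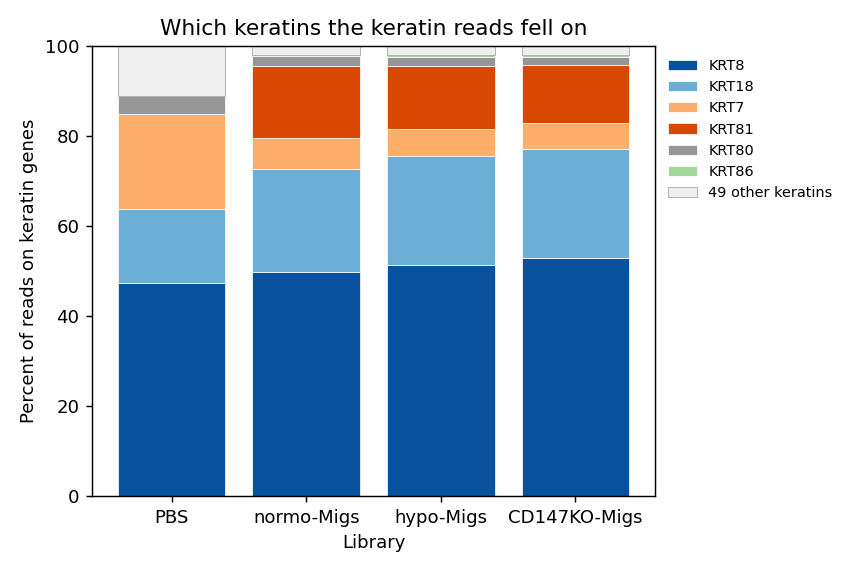
Percent of the reads on 55 protein-coding keratins that fell on each of the 6 described here and on the other 49, by library. KRT81 takes 13.1% to 15.9% in the Mig libraries and is too small to see with PBS, where KRT7 takes 21.0%.

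By FPKM, the order of the genes with PBS was KRT8 (444), KRT7 (330), KRT18 (330), KRT80 (58.8), VIM (54.8), NES (1.99), KRT86 (1.40) and KRT81 (0.660). KRT7 and KRT18 did not differ there beyond counting error. With Migs, KRT8 (546, 602 and 647), KRT18 (539, 607 and 639) and KRT81 (622, 589 and 572) filled the first 3 places in varying order, and KRT7 (128, 116 and 115) was 4th. VIM (55.0, 54.1 and 49.7), KRT80 (38.0, 38.6 and 34.1), NES (20.7, 19.4 and 18.8) and KRT86 (10.0, 9.48 and 10.9) followed in that order in each. The levels at the top, and the gaps between them, depend on the length used. With the length of the main transcript in place of all exonic bases, 7 of the 32 places changed, and the order KRT8, KRT18, KRT81 held in all 3 Mig libraries. By that length KRT81 stood at 619, 592 and 577 CPM per kilobase with Migs, well below KRT8 (2130, 2370 and 2561) and KRT18 (1214, 1383 and 1460).

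Of the 49 other protein-coding keratins, 15 had enough reads to be compared. In each Mig library 2 of the 15 were at least 2-fold higher than with PBS and 10 at least 2-fold lower, and their median log2 fold change was -1.97, -1.62 and -1.53. Over all genes tested, 18.1% to 18.9% were higher and 11.7% to 12.0% lower. KRT19, the bile duct partner of KRT7, had 11287 reads with PBS and 75, 52 and 32 with Migs, log2 fold changes of -7.18, -7.92 and -8.40. KRT17, a type I keratin of basal and stressed epithelium, had 11202 reads with PBS and 2816, 4228 and 4007 with Migs. KRT16, induced with KRT17 in wounded skin, had 421 reads and 124, 181 and 120.

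KRT13, a keratin of the mucosa, had 161 reads with PBS and 0, 1 and 0 with Migs, which is at least 53.0-fold lower with normo-Migs and at least 54.5-fold lower with CD147KO-Migs. KRT15 had 122 reads with PBS and 64, 32 and 50 with Migs. KRT10 was the exception among those with the most reads, with 1555 reads with PBS and 2046, 2153 and 1898 with Migs, under 2-fold in each.

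Among 13 other intermediate filament genes, 11 could be compared. At least 2-fold higher than with PBS were 6, 6 and 5 of them, and 2 were lower in each, with medians of 1.32, 1.25 and 0.18. The shares over all genes tested were 18.1% to 18.9% higher and 11.7% to 12.0% lower. INA (alpha-internexin, a neuronal filament protein) had 0 reads with PBS and 882, 1003 and 837 with Migs, which is at least 298-fold, 287-fold and 275-fold higher. SYNM (synemin, which like nestin assembles with vimentin or desmin) had 1091 reads with PBS and 2690, 3018 and 2584 with Migs. NEFH, the heavy neurofilament chain, was lower, with 9255 reads and 3293, 3453 and 2964. The nuclear lamin LMNA had 32738 reads with PBS and 28426, 32062 and 29424 with Migs, under 2-fold in each, and the lamins LMNB1 and LMNB2 also stayed under 2-fold.

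Of 18 genes for linker proteins and desmosomes, the junctions that anchor keratin filaments, 14 could be compared. In each Mig library 2 were at least 2-fold higher, and 4, 4 and 5 were lower, with medians of -0.41, -0.47 and -0.44. Shares over all genes tested were 18.1% to 18.9% higher and 11.7% to 12.0% lower. With 14 genes, the 2 higher ones are too few to be set apart from that share. The higher ones were the desmosomal cadherins DSC2, with 30 reads with PBS and 582, 803 and 621 with Migs, and DSC3, with 0 reads and 357, 296 and 297. The lower ones included PPL (periplakin), with 19139 reads and 2588, 3472 and 3262, and the plakophilins PKP3 (9151 reads and 3035, 3489 and 3036) and PKP2 (2376 reads and 417, 502 and 378). PLEC (plectin), which ties keratin and vimentin filaments to other structures, had 44272 reads with PBS and 31179, 33477 and 32047 with Migs, and DSP (desmoplakin) had 17848 and 21682, 25854 and 22446, both under 2-fold. JUP (20539 reads and 14195, 16760 and 15522) and DST (12212 reads and 10362, 12787 and 11018) also stayed under 2-fold.

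**Figure D5:**
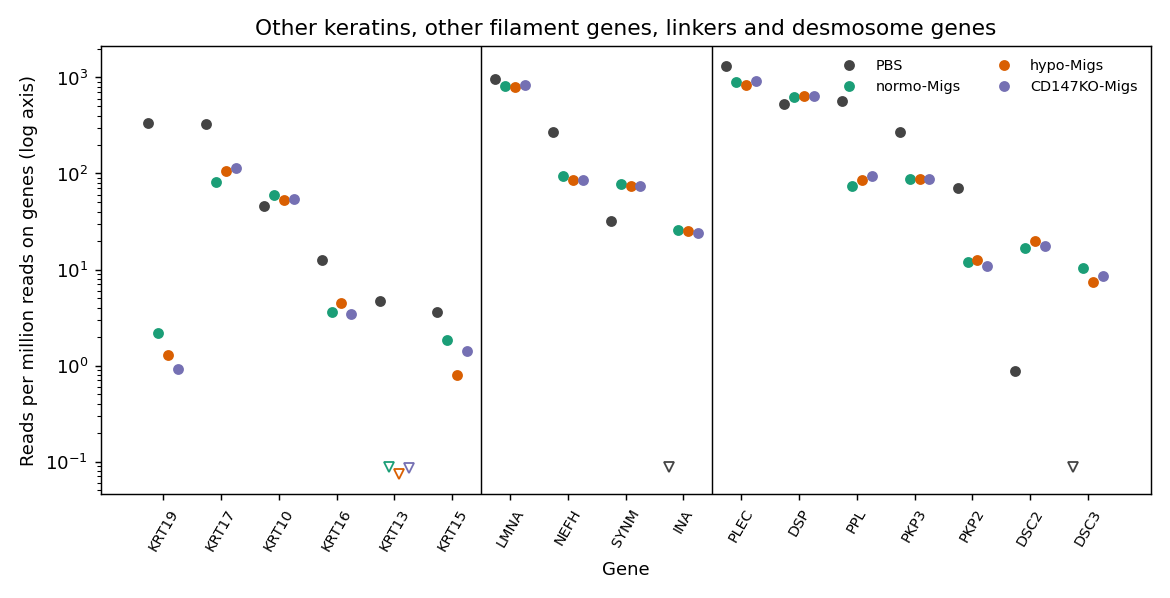
CPM on a log axis of other keratins (left), other filament genes (middle) and linker and desmosome genes (right) in the 4 libraries. Open triangles stand at the value of 3 reads and mark libraries with at most 3 reads of the gene. KRT19 lies at 333 CPM with PBS and at most 2.17 CPM with Migs, and INA and DSC3 have 0 reads with PBS.

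Genes of other programs differed across the same contrast. Among all genes tested, 18.1% to 18.9% were at least 2-fold higher than with PBS and 11.7% to 12.0% lower. Of 16 epithelial genes 14 could be compared, and 5 were at least 2-fold higher and 4 lower in each Mig library. CDH1 (E-cadherin) had 0 reads with PBS and 114, 123 and 112 with Migs, RAB25 had 0 and 90, 123 and 122, EPCAM had 578 and 1451, 1834 and 1524, and ESRP2, with 4253 reads with PBS and 1767, 1894 and 1910 with Migs, was among the lower ones. ELF3, with 4524 reads and 2427, 2956 and 2753, and SPINT1, with 1623 reads and 1417, 1847 and 1689, stayed under 2-fold. Of 8 fibroblast markers 6 could be compared and 5 were at least 2-fold higher in each Mig library, and the list summed to 24.0 CPM with PBS and 206 to 221 CPM with Migs. Among them COL1A1 had 681 reads with PBS and 3551, 4017 and 3472 with Migs, PDGFRB 70 and 1747, 2446 and 2166, and THY1 11 and 1681, 2082 and 1859, whereas the defining markers COL1A2 and PDGFRA had at most 2 reads in any library.

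For the lists that follow, the shares over all genes tested were again 18.1% to 18.9% higher and 11.7% to 12.0% lower. Of 17 hepatocyte markers 10 could be compared, and 6, 6 and 7 were at least 2-fold higher than with PBS and 2, 3 and 2 lower. The list summed to 1.89 CPM with PBS and 35.9 to 49.9 CPM with Migs, of which FGA (0 reads and 395, 493 and 462) and FGB (0 and 561, 827 and 832) made up most. Of 9 bile duct and progenitor markers, all of which could be compared and which include KRT7 and KRT19, 4 were higher in each Mig library, and 3, 3 and 4 lower, with sums of 1878 CPM with PBS and 1102 to 1149 with Migs. Among them CD24 had 4478 reads with PBS and 17523, 23510 and 20966 with Migs, and SPP1 had 0 and 428, 408 and 463. Leukocyte markers summed to at most 4.28 CPM and endothelial markers to at most 5.86 CPM in any library, with PTPRC and KDR at 2 reads or fewer and CD3E at 0. The part of any of these programs in the keratin and nestin values was not tested.

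Several members share ground with other genes. KRT8 (chr12:52897187-52949954, minus strand) and KRT18 (chr12:52948871-52952901, plus strand) overlap at their 5′ ends, with 525 exonic bases in common on opposite strands. The strand setting of the counting is not given in the sources used here, and without strand the reads of that stretch cannot be assigned to either gene. KRT7 (chr12:52232520-52252186, plus strand) shares 282 exonic bases with the antisense gene KRT7-AS, which had 640 reads with PBS and 241, 310 and 315 with Migs. VIM (chr10:17228259-17237593, plus strand) shares 641 exonic bases with VIM-AS1, which had 43, 30, 25 and 14 reads. KRT80 (chr12:52168996-52192000, minus strand) and NES (chr1:156668763-156677397, minus strand) shared no exonic base with a gene that overlaps them.

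Processed copies affect KRT8 and KRT18 at short read lengths. Of stretches of 50 bases, 39.7% of those in KRT8 and 52.5% of those in KRT18 also occurred in another annotated gene, most often the pseudogene KRT8P3 for KRT8 and KRT8 itself for KRT18. With stretches of 150 bases the shares were 0% and 12.2%, the latter all from the KRT8 overlap. For KRT81 and KRT86 the shares remained at 25.6% and 23.5% with 150 bases.

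The genes with the most similar pattern were sought among 11440 protein-coding genes whose mean reached 100 reads, by the root mean square difference of log2 CPM after centring over the 4 libraries. With 4 libraries, 1 of which stands apart, such likeness mostly restates the difference from PBS. Nearest to KRT81 were PLIN2, a coat protein of lipid droplets, with 2 reads with PBS and 3456, 3756 and 3035 with Migs (distance 0.0578), and COL5A2 with 18 reads and 14903, 18267 and 15633, and only 3 genes lay within 0.1. Nearest to NES were MT1E, a metallothionein (distance 0.0237), and DIAPH2, with 13 genes within 0.1. Nearest to KRT86 was RIMS3, with 38 within 0.1, and nearest to KRT7 were ZBTB21 and TTLL12, with 72. For genes with small differences the neighbours were many: 331 for KRT18 (first MYD88 and PSMA6), 750 for KRT8 (first RAB26 and GATC), 765 for KRT80 (first ZCCHC3 and TRIP11) and 2043 for VIM (first SMIM10L1 and QKI).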

How the data were processed

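RNA from MHCC-97H cells was sequenced, with 1 library for each of 4 treatments. The supplementary methods describe poly-T beads and random hexamers, whereas the labels name a SMARTer mRNA kit. The submitters' processing notes name CASAVA 1.8, fastp, HISAT2 2.0.5, featureCounts 1.5.0-p3 and the build hg38. The strand setting is not given in the sources used here. Of the tables the authors deposited, one holds counts (reads per gene, not normalized) and the other FPKM, the same reads divided by length and depth. In the deposited FPKM table the length was the total of exonic bases and the library size was 0.994 to 1.02 times the reads on genes. Coordinates and transcripts are those of GENCODE 29.

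A gene was kept if any library held 10 or more of its reads (19895 of 58735). Libraries were scaled by TMM (edgeR 4.0.16, R 4.3.3, factors 0.986 to 1.02), with a prior count of 2 in the log2 fold changes. With 1 library per condition there are no residual degrees of freedom, so no p-value is given. Ratios of reads have exact 95% binomial intervals and shares 95% Wilson intervals, both for counting error only. The intervals of ratios were computed without the prior count. Folds against a library at 0 reads are bounds computed with 3 reads in that library. The log2 fold changes and intervals were tested on simulated data with Poisson counting error alone. Such data hold no spread between cultures, so the test cannot show how the values would hold up to it. Other tools were Python 3.11.15, numpy 2.4.6, pandas 2.3.3, scipy 1.17.1, matplotlib 3.10.9 and DESeq2 1.42.0.

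The 8 genes and the lists were chosen with earlier results of these data known. Genes named beside them were, from each list, some or all of the 4 with the most reads (6 for the other keratins). Also named were those with at most 3 reads in one library and at least 100 in another. Further ones were genes overlapping a member and the 2 nearest genes by pattern. PPL, PKP2, PKP3, DSC2, SYNM and the defining markers at or near 0 were added after their values were seen. One gene near KRT86 by pattern and one sequence are not reported here.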

Additional observations from a re-analysis of the deposited data

How the results depend on the processing

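No paired analysis was possible because each condition has 1 library, and for the same reason no library could be left out as a replicate. Values below are in the order normo-Migs, hypo-Migs and CD147KO-Migs against PBS, then hypo-Migs against normo-Migs, hypo-Migs against CD147KO-Migs and CD147KO-Migs against normo-Migs. Of the 8 genes, 4 differed by at least 2-fold in each comparison with PBS and 0 among the Mig libraries, and this held with DESeq2 size factors, total reads, another prior count, other filters, intervals wholly beyond 2-fold and FPKM with either pseudocount. An exact test with an assumed coefficient of variation of 0.4 passed 3 of the 8 in each comparison with PBS, without KRT7. DESeq2 over the 4 libraries, which takes different conditions as replicates, gave 0 of the 8 in every comparison. With a limit of 1.5-fold, 6 of the 8 passed in each comparison with PBS, KRT18 and KRT80 in addition. Summing KRT81 with KRT86 leaves 7 genes, of which 3 passed. The log2 fold changes of KRT81, KRT86 and NES over PBS were smaller on the scale log2(FPKM + 1).

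Counts over all genes moved more. At least 2-fold were 5951, 6071, 5977, 1869, 1817 and 1883 genes. With no filter on low counts there were 9520, 9642, 9526, 5131, 4991 and 4922, and with at least 10 reads in every library 2683, 2747, 2752, 254, 234 and 263. On the scale log2(FPKM + 1) there were 1619, 1674, 1658, 56, 80 and 66, and with FPKM + 0.1 the 3 comparisons among Migs gave 1021, 1005 and 1037. The exact test with the assumed variation gave 1535, 1633, 1575, 0, 1 and 2, and DESeq2 0 in all 6. A limit of 1.5-fold gave 9594, 9704, 9682, 3640, 3671 and 3649. Intervals wholly beyond 2-fold numbered 3413, 3562, 3511, 268, 270 and 264. Protein-coding genes alone gave 3762, 3822, 3788, 639, 643 and 665. The order of the 8 genes by level kept all its places with TPM, and 7 of 32 places changed with the length of the main transcript, a choice added after the data were seen. Genes with few reads are the limit of depth here: KRT81 and KRT86 rest on 44 and 116 reads with PBS, so their folds have the widest intervals.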
